A study of Macaca fascicularis with 8 samples.

Results

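The grainyhead factors GRHL1, GRHL2 and GRHL3, the OVO-like repressors OVOL1 and OVOL2, the ETS factor ELF3 and the splicing regulators ESRP1 and ESRP2 control epithelial genes at the level of transcription and of splicing. These 8 genes were chosen by name, and each was matched to 1 of the 33121 genes in the deposited table, 1 through the table's own gene name and 7 through the best protein match (91.6% to 100% identity). The series holds 8 poly(A) RNA-seq libraries of embryonic stem cells (ESCs) from the cynomolgus monkey, 4 of primed and 4 of dome-shaped cells. Primed ESCs formed flat colonies in CESM, a mixture of the human stem cell medium PSGro with conventional monkey ESC medium. Dome-shaped ESCs grew in NHSMV, a medium based on knockout DMEM with AlbuMAX I, N2 supplement, insulin (12.5 µg/ml), human LIF (10 ng/ml), bFGF (8 ng/ml), TGF-β1 (1 ng/ml), vitamin C (50 µg/ml), glutamine, nonessential amino acids and β-mercaptoethanol. It also contained 5 kinase inhibitors, PD0325901 (1 µM), which inhibits MEK, CHIR99021 (3 µM), which inhibits GSK3, SB202190 (5 µM) and SB203580 (10 µM), which inhibit p38, and SP600125 (10 µM), which inhibits JNK. Medium, colony shape and group coincided, so they cannot be told apart. The titles carry a number after CES, which is 1, 2, 3 and 3 for primed replicates 1 to 4 and 1, 1, 2 and 3 for dome-shaped replicates 1 to 4, so replicate numbers below are names and do not match it. Dome-shaped replicate 4 is the only dome-shaped library with CES number 3, and its title shares the start CES3_12 with that of primed replicate 4. What the numbers stand for is not stated, and nothing in the labels states which libraries came from separate cultures or animals; p-values therefore measure the spread between these libraries, which may be technical.

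Grainyhead factors bind the promoters and enhancers of cadherin, claudin and protease genes and hold epithelial cells in their polarized state. OVOL1 and OVOL2 are zinc finger repressors that silence mesenchymal genes, among them ZEB1, and the ZEB proteins in turn repress OVOL2, GRHL2, ESRP1 and CDH1, so that the groups of factors restrain each other. ESRP1 and ESRP2 bind pre-messenger RNA and direct the epithelial choice of exons in transcripts such as FGFR2 and CD44. ELF3 is an epithelium-restricted ETS factor. Primed ESCs resemble the epithelium of the epiblast and carry E-cadherin at their borders.

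The libraries held 14400000 to 18080000 reads each, as implied by the steps of the RPKM values (reads scaled to the length of the gene and the depth of the library), and 72.0% to 73.4% of low values in primed and 71.6% to 72.9% in dome-shaped libraries were whole reads within 0.01 read. The pluripotency factors SOX2 and NANOG were read at more than 1 RPKM in all 8 libraries; no row was paired with POU5F1. Of 10 tested pluripotency markers 6 were lower and 0 higher by limma (median log2 fold change -0.72), against 7.96% and 6.38% of genes tested. That count was 5, 1, 2 and 2 when primed replicate 1, 2, 3 or 4 was left out and 3, 1, 2 and 7 when dome-shaped replicate 1, 2, 3 or 4 was. Their summed level was 3184 to 3856 RPKM in primed and 2139 to 3189 RPKM in dome-shaped libraries, highest among the latter in replicate 4; their part in the results below was not tested. Dome-shaped replicate 4 and primed replicate 1 stood apart from their groups for several genes below, and values without them are given for GRHL1, GRHL2, OVOL2, ESRP1, ESRP2, CDH1 and ZEB1. Among markers of other cell types, 8 of 14 genes of surface ectoderm and epidermis, KRT5, KRT14 and TP63 among them, were under 1 RPKM in every library. Other genes of that list, SFN and TFAP2A among them, were read. The list summed to 56.0 to 102 RPKM in primed and 23.2 to 32.5 RPKM in dome-shaped libraries.

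All 8 genes had a lower mean in dome-shaped ESCs, and 7 were called lower and 0 higher by limma on log2(RPKM + 1) at an adjusted p under 0.05. Of the 15597 genes tested, 7.96% were called lower and 6.38% higher. OVOL1 reached 1 RPKM in the 4 primed libraries alone and so entered the test only through the group in which it was high. The groups did not overlap for 7 of the 8, against 10.7% of all genes tested that were lower without overlap. The median log2 fold change of the 8 was -1.85, beside 0.026 over all genes. In bulk RNA, fewer cells of a type and less RNA per cell cannot be told apart.

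**Figure D1:**
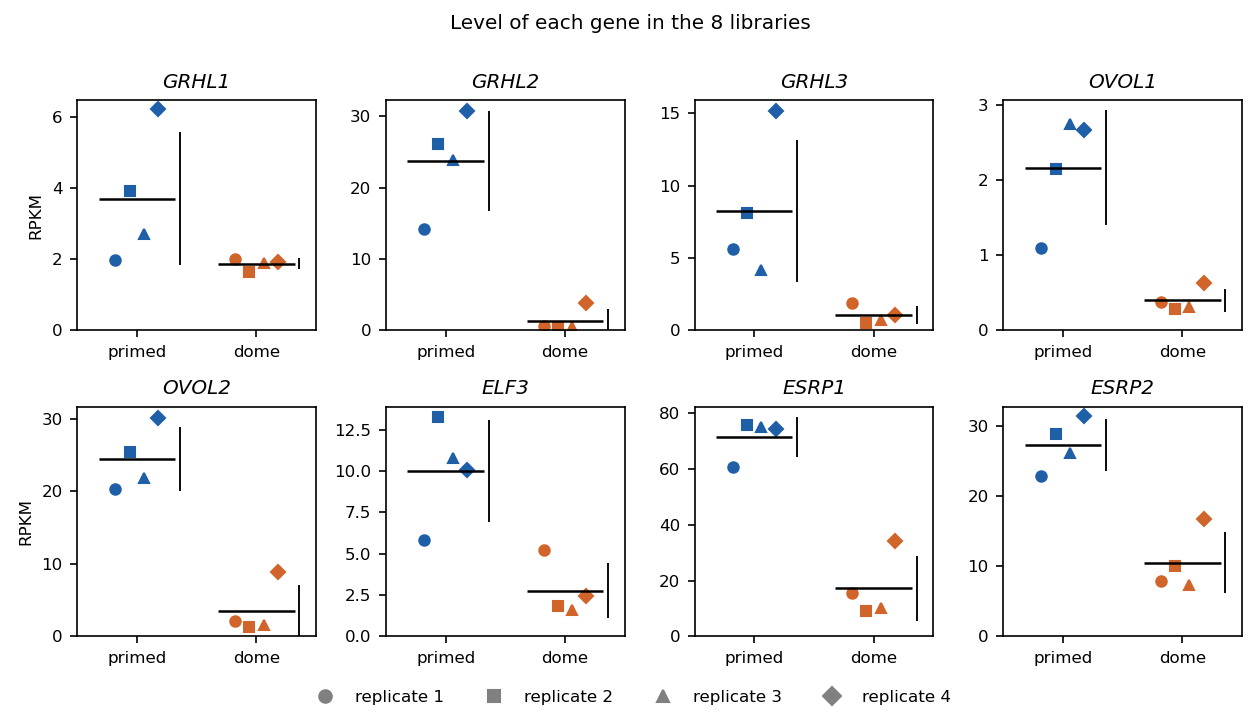
RPKM of each gene (vertical axes, linear, a scale of its own for each gene) in the 4 primed and 4 dome-shaped libraries; marker shapes give the replicate number, horizontal lines the group means and vertical lines the SD, cut off at 0. The groups are apart for every gene but GRHL1, and dome-shaped replicate 4 lies above the other dome-shaped libraries for GRHL2, OVOL1, OVOL2, ESRP1 and ESRP2.

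GRHL2, the grainyhead factor that activates CDH1 and claudin genes, showed the largest change of the 8. It stood at 14.2, 26.2, 23.9 and 30.7 RPKM in primed replicates 1 to 4 and at 0.578, 0.366, 0.442 and 3.76 RPKM in dome-shaped replicates 1 to 4. Every primed library lay above every dome-shaped library, and within the dome-shaped group replicate 4 stood far above the other 3. The means were 23.7 ± 6.97 and 1.29 ± 1.65 RPKM (SD, n = 4 each), a ratio of 18.4, which was 51.4 without dome-shaped replicate 4 (dome-shaped mean 0.462 RPKM). The log2 fold change was -3.61 (SE 0.40, limma adjusted p = 0.00189), the 11th lowest of the 15597 tested genes. It was -4.03 (SE 0.24) without dome-shaped replicate 4 and -3.82 (SE 0.42) without primed replicate 1.

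GRHL3, the grainyhead factor of the epidermal barrier and of neural tube closure, was lower as well but with a wider spread among primed libraries. Its levels were 5.59, 8.07, 4.16 and 15.2 RPKM in the primed and 1.89, 0.488, 0.673 and 1.01 RPKM in the dome-shaped libraries. Here dome-shaped replicate 1, not replicate 4, was the highest of its group, and the groups did not overlap. Its log2 fold change was -2.11 (SE 0.35, limma adjusted p = 0.00718), with means of 8.24 ± 4.88 and 1.02 ± 0.620 RPKM (SD, n = 4 each).

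GRHL1, the grainyhead factor known for desmosomal cadherin genes of the skin, was the 1 member not called. It stood at 1.96, 3.91, 2.69 and 6.22 RPKM in primed and 1.99, 1.64, 1.90 and 1.93 RPKM in dome-shaped libraries. The groups overlapped, since dome-shaped replicate 1 lay just above primed replicate 1. The primed libraries spread over a wide range, 3.70 ± 1.87 RPKM, and the dome-shaped libraries lay within a narrow one, 1.86 ± 0.155 RPKM (SD, n = 4 each). The log2 fold change was -0.63 (SE 0.26, limma adjusted p = 0.126; exact two-sided permutation p = 0.0571, where 70 relabellings allow no p under 0.0286). Without primed replicate 1 it was -0.83 (limma adjusted p = 0.0503), and GRHL1 was called in none of the 8 fits that left out a library.

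GRHL2 made up most of the summed grainyhead RPKM in primed libraries and a small part of it in dome-shaped replicates 1 to 3. RPKM is per gene length, so setting the levels of these genes side by side depends on the lengths used. The query lengths were 2253, 4738 and 1875 bases for GRHL1, GRHL2 and GRHL3. With them the estimated reads were nearly whole for GRHL2 but not for GRHL1 and GRHL3 (73.2 and 173.5 in primed replicate 1). The RPKM of GRHL1 and GRHL3 may rest on other lengths, which would change a ratio by the same factor in every library. GRHL2 made up 65.3%, 68.6%, 77.7% and 59.0% of the summed RPKM of the 3 genes in the primed libraries. In dome-shaped replicates 1, 2 and 3 its share was 12.98%, 14.70% and 14.67%, and in replicate 4 it was 56.1%, just under the primed range. GRHL1 made up 8.78% to 11.95% of the sum in primed libraries and 44.7%, 65.7%, 62.97% and 28.7% in the dome-shaped ones, without a higher level of its own. The ratio of GRHL2 to GRHL1 was 4.94 to 8.85 in primed and 0.224 to 1.95 in dome-shaped libraries (difference of log2 ratios -4.03, exact two-sided permutation p = 0.0286). Adjusted over 4 ratios chosen after their values were seen, the exact permutation p was 0.0571, which does not pass 0.05. Since 0.0286 is the smallest p that 70 relabellings allow, passing needed most of the 4 ratios to reach it. The ratio of GRHL2 to GRHL3 was 2.03 to 5.73 and 0.307 to 3.71; dome-shaped replicate 4 fell within the primed range, and the difference did not pass the same test (exact permutation p = 0.114, adjusted 0.114).

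**Figure D2:**
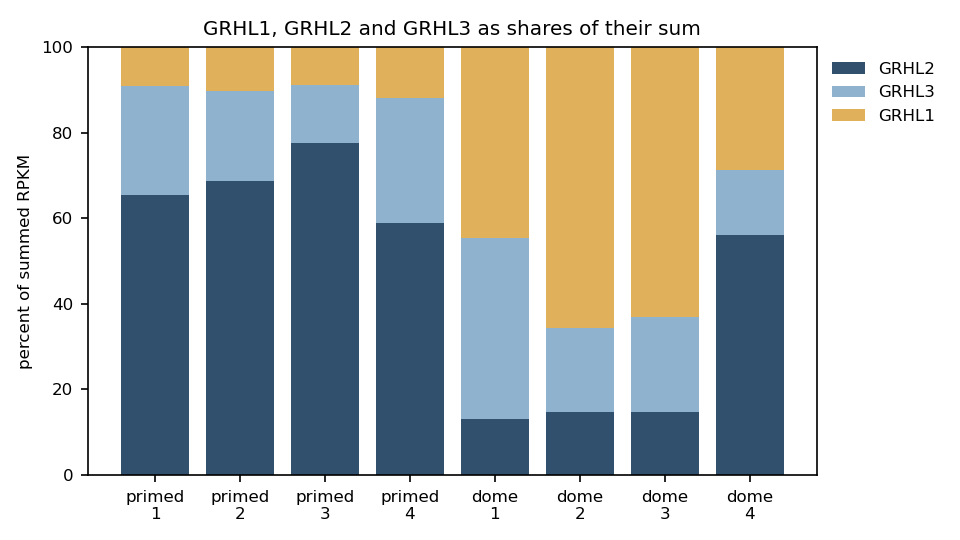
Shares of GRHL2, GRHL3 and GRHL1 (percent of their summed RPKM, stacked from 0 to 100) in each of the 8 libraries. GRHL2 holds 59.0% to 77.7% in primed libraries, 12.98% to 14.70% in dome-shaped replicates 1 to 3 and 56.1% in dome-shaped replicate 4.

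The repressor OVOL2, a factor of epithelial identity, had nearly the same primed level as GRHL2. It stood at 20.3, 25.4, 21.8 and 30.1 RPKM in primed and 2.07, 1.25, 1.62 and 8.90 RPKM in dome-shaped libraries. The groups were apart, and dome-shaped replicate 4 was again the highest of its group by a wide margin. The means were 24.4 ± 4.39 and 3.46 ± 3.64 RPKM (SD, n = 4 each), with a log2 fold change of -2.78 (SE 0.41, limma adjusted p = 0.0045). Without dome-shaped replicate 4 the log2 fold change was -3.26 (SE 0.17) and the ratio of the means 14.8 instead of 7.06; without primed replicate 1 the log2 fold change was -2.86 (SE 0.47).

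Its relative OVOL1, known from epidermal differentiation, was low throughout. It stood at 1.09, 2.14, 2.75 and 2.67 RPKM in primed libraries and at 0.374, 0.278, 0.302 and 0.625 RPKM in dome-shaped libraries, which corresponded to 54 to 149 and 12 to 27 reads. The groups did not overlap even though primed replicate 1 was well under the other primed libraries. The log2 fold change was -1.15 (SE 0.22, limma adjusted p = 0.0108) and understates the change at such levels, since 1 is added to each value; the ratio of the means was 5.48. OVOL2 was 7.93 to 18.7 times the level of OVOL1 in primed and 4.48 to 14.3 times in dome-shaped libraries, and the difference of this ratio did not pass the test (exact permutation p = 0.114).

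ESRP1 was the most abundant of the 8 genes in both states. It stood at 60.6, 75.6, 75.0 and 74.4 RPKM in primed libraries, above 93.5% to 95.0% of all genes, and at 15.5, 9.14, 10.2 and 34.3 RPKM in dome-shaped libraries. Primed replicate 1 lay under the other primed libraries, which lay close together, and dome-shaped replicate 4 lay between the primed and the other dome-shaped libraries. The means were 71.4 ± 7.22 and 17.3 ± 11.7 RPKM (SD, n = 4 each) and the log2 fold change -2.17 (SE 0.34, limma adjusted p = 0.00554). Leaving out dome-shaped replicate 4 gave -2.55 (SE 0.17), and leaving out primed replicate 1 gave -2.25 (SE 0.38). ESRP1 thus kept a level in dome-shaped cells that exceeded 72.5% to 88.6% of all genes.

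ESRP2, which shares exon targets with ESRP1, was lower in dome-shaped cells too. Its levels were 22.9, 28.9, 26.2 and 31.6 RPKM in primed and 7.90, 10.0, 7.40 and 16.8 RPKM in dome-shaped libraries, with no overlap. It had a log2 fold change of -1.36 (SE 0.23, limma adjusted p = 0.00717), or -1.59 (SE 0.14) without dome-shaped replicate 4 and -1.44 (SE 0.25) without primed replicate 1. The ratio of ESRP1 to ESRP2 was 2.65, 2.61, 2.86 and 2.36 in primed and 1.96, 0.914, 1.37 and 2.03 in dome-shaped libraries. Every dome-shaped ratio was under every primed ratio, and in dome-shaped replicate 2 the order of the pair was turned (difference of log2 ratios -0.81, exact permutation p = 0.0286). Adjusted over the 4 ratios tested, the exact permutation p was 0.0571 and did not pass 0.05. Since 0.0286 is the smallest p that 70 relabellings allow, passing needed most of the 4 ratios to reach it. The adjusted value therefore cannot decide whether this ratio differed.

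ELF3, like GRHL3, was highest among dome-shaped libraries in replicate 1. It stood at 5.83, 13.3, 10.8 and 10.0 RPKM in primed and 5.21, 1.87, 1.58 and 2.42 RPKM in dome-shaped libraries. Dome-shaped replicate 1 came close to primed replicate 1, while dome-shaped replicate 4 lay among the low libraries. This gave a log2 fold change of -1.59 (SE 0.31, limma adjusted p = 0.0123), with means of 9.99 ± 3.09 and 2.77 ± 1.66 RPKM (SD, n = 4 each).

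The order of the genes by level depends on the gene lengths behind the RPKM values. In primed ESCs the order of mean levels was ESRP1, ESRP2, OVOL2, GRHL2, ELF3, GRHL3, GRHL1 and OVOL1. ESRP1 stood clear of all others, the ranges of ESRP2, OVOL2 and GRHL2 overlapped, and so did those of ELF3 with GRHL3, GRHL3 with GRHL1 and GRHL1 with OVOL1. In dome-shaped ESCs the order was ESRP1, ESRP2, OVOL2, ELF3, GRHL1, GRHL2, GRHL3 and OVOL1, with GRHL2 in the sixth place and not the fourth. Without dome-shaped replicate 4 it was ESRP1, ESRP2, ELF3, GRHL1, OVOL2, GRHL3, GRHL2 and OVOL1, with OVOL2 in the fifth and GRHL2 in the seventh place. Over all 4 dome-shaped libraries the ranges of ESRP1 and ESRP2 overlapped, as did those of each further neighbour down to GRHL3 and OVOL1.

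Which libraries were high or low recurred from gene to gene. Primed replicate 1 was the lowest primed library for 7 of the 8 genes, with GRHL3 the exception, while it was the lowest for 36.1% of all genes tested. Dome-shaped replicate 4 was the highest dome-shaped library for 5 of the 8, against 21.1% of all genes tested, and dome-shaped replicate 1 for the other 3. On the log2(RPKM + 1) scale dome-shaped replicate 4 exceeded the mean of the other dome-shaped libraries by 1.71 for GRHL2, 1.92 for OVOL2, 1.52 for ESRP1 and 0.93 for ESRP2. The corresponding values were 0.04 for GRHL1, 0.06 for GRHL3, 0.30 for OVOL1 and -0.07 for ELF3. Without dome-shaped replicate 4, and likewise without primed replicate 1, the same 7 genes were called lower by limma.

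By Pearson correlation over the 8 libraries, a description in which the group difference dominates, the other genes ranked by likeness to GRHL2 were headed by CGN, URGCP, MAP7, CDH3 and FAM60A (r = 0.997 for CGN and 0.995 for FAM60A). CGN encodes the tight junction protein cingulin and CDH3 P-cadherin. The lowest correlations with GRHL2 were those of NEFL, EMILIN1, FAM204A, GMNN and PM20D2 (r = -0.996 for NEFL and -0.983 for PM20D2). ESRP1 was most like DHRS3, CDH1, OVOL2, EPCAM and ERBB3 (r = 0.995 for DHRS3 and 0.992 for ERBB3) and least like ST6GAL2, ZFP69B, PLAGL1, PHF20L1 and ALG9. Among the 8 genes themselves, the correlation with GRHL2 was 0.989 for OVOL2, 0.981 for ESRP1 and ESRP2, 0.959 for OVOL1, 0.90 for GRHL3, 0.870 for ELF3 and 0.750 for GRHL1. All libraries share their processing, and genes are not independent replicates.

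Genes that grainyhead and OVOL factors are linked to in epithelia moved with them. Of 33 such genes on a list of junction, protease, polarity and keratin genes, 29 were tested, and 29 were lower and 0 higher by limma (median log2 fold change -1.79, beside 0.026 over all genes). CLDN4 passed the filter through primed libraries alone. Over all 33 genes, tested or not, 30 were lower without overlap; TJP3, EVPL and TGM1 overlapped. The list overlaps epithelial genes already known to be lower in these libraries, so it gives no independent support for the direction.

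CDH1, the E-cadherin gene and a classical GRHL2 target, stood at 76.5, 96.2, 94.1 and 100.5 RPKM in primed and 1.56, 0.364, 0.205 and 9.96 RPKM in dome-shaped libraries (log2 fold change -5.15, SE 0.60, limma adjusted p = 0.00203). The log2 fold change was -5.84 (SE 0.25) without dome-shaped replicate 4 and -5.23 (SE 0.68) without primed replicate 1, and the ratio of the means was 129.6 without the former, against 30.4 with it. As with GRHL2 and OVOL2, dome-shaped replicate 4 was the highest of its group. CLDN4, a claudin of tight junctions, had a log2 fold change of -2.87 (SE 0.17, limma adjusted p = 0.000109), and LAD1, a basement membrane anchor protein, one of -4.41 (SE 0.27). AP1M2, a subunit of the epithelial sorting adaptor, and ST14, the membrane protease matriptase, were lower by log2 fold changes of -4.92 (SE 0.34) and -3.43 (SE 0.25). Dome-shaped replicate 4 was the highest dome-shaped library for 18 of the 29 tested genes and the lowest for 1, and primed replicate 1 the lowest primed library for 23. In CLDN4 dome-shaped replicate 4 did not stand out, at 0.419 RPKM against 0.445 to 0.605 RPKM in the other dome-shaped libraries. The symbols TJP3 and PATJ each fitted 3 genes of the deposited table, KRT18 fitted 7, KRT8 and KRT19 4 each and SPINT1 2. For each of these symbols only 1 gene was counted. TJP3, a zonula occludens protein, was called (log2 fold change -1.79, limma adjusted p = 0.0457) although primed replicate 1, at 1.01 RPKM, lay within the dome-shaped range. It was called in 1 of the 8 fits that left out a library, the one without primed replicate 1; with primed replicate 2, 3 or 4 left out its adjusted p was 0.116, 0.104 and 0.103, and with dome-shaped replicate 1, 2, 3 or 4 left out 0.0889, 0.0937, 0.0978 and 0.0663.

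**Figure D3:**
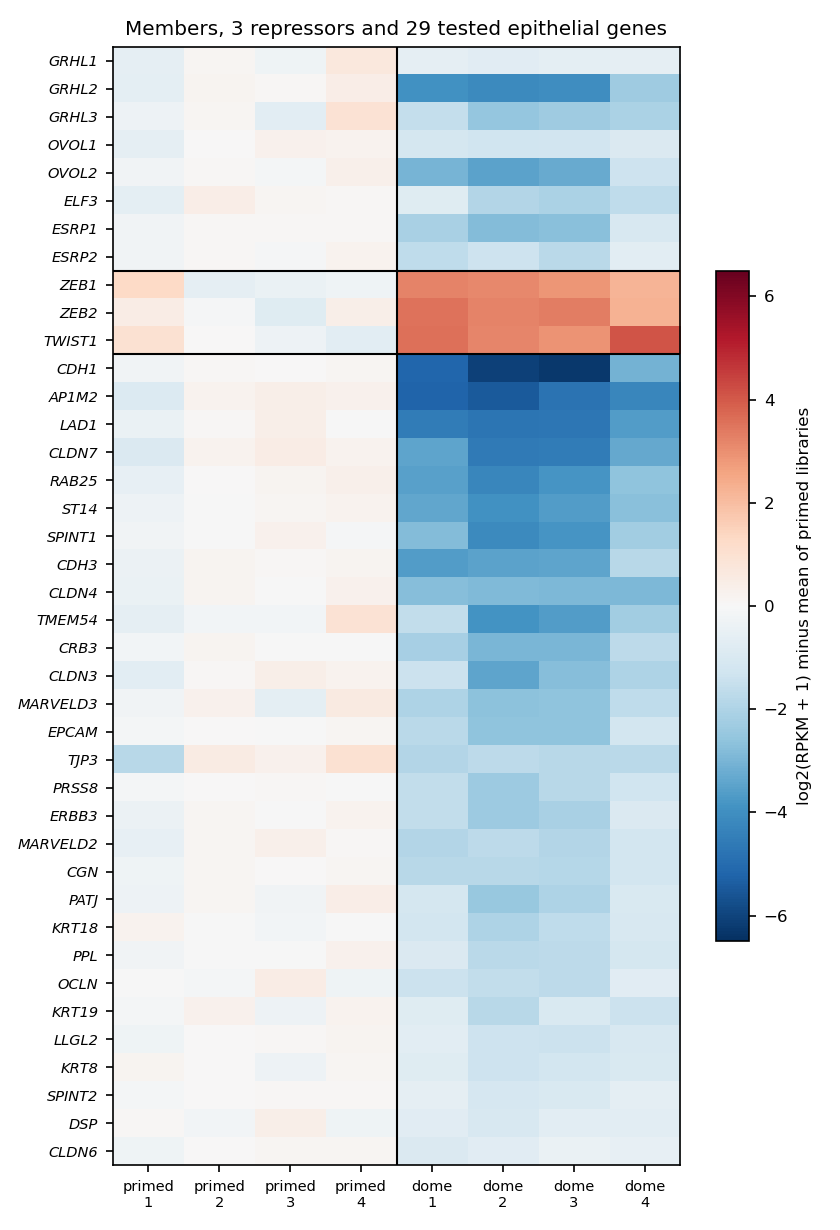
log2(RPKM + 1) of each gene minus its mean over the primed libraries (colour, blue lower and red higher) for the 8 genes (top block), ZEB1, ZEB2 and TWIST1 (middle) and the 29 tested epithelial genes (bottom, ordered by fold change), in the 8 libraries (columns). Dome-shaped replicate 4 is the highest dome-shaped library in 5 of 8 rows of the top and 18 of 29 of the bottom block, with CDH1 at 9.96 RPKM against at most 1.56 RPKM in the others.

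Repressors of epithelial genes were divided. Of 9 on the list 8 were tested, and 3 were higher, 1 was lower and 4 were not called (median log2 fold change 0.29). The shares of all genes tested were 6.38% higher and 7.96% lower. ZEB1, which represses CDH1, ESRP1 and OVOL2, stood at 3.40, 0.233, 0.337 and 0.4998 RPKM in primed and 15.8, 14.6, 12.1 and 7.45 RPKM in dome-shaped libraries (log2 fold change 2.85, SE 0.40, limma adjusted p = 0.00392). Primed replicate 1 was the highest primed and dome-shaped replicate 4 the lowest dome-shaped library. Without the first the log2 fold change was 3.27 (SE 0.25) and the ratio of the means 35.1 instead of 11.2, and without the second the log2 fold change was 3.06 (SE 0.42). ZEB2 rose by 3.09 (SE 0.35, limma adjusted p = 0.00189), and it too was lowest among dome-shaped libraries in replicate 4, at 9.93 RPKM against 20.8 to 25.98 RPKM in the other 3.

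TWIST1, a mesenchymal helix-loop-helix factor, did not share that order. It stood at 7.16, 3.25, 2.27 and 1.59 RPKM in primed and 49.0, 35.8, 30.1 and 68.2 RPKM in dome-shaped libraries, with replicate 4 the highest (log2 fold change 3.43, SE 0.36, limma adjusted p = 0.00164). SNAI1 stood at 5.81 ± 1.65 and 5.01 ± 1.21 RPKM (SD, n = 4 each, limma adjusted p = 0.612). SNAI2 stood at 0.664 ± 0.394 and 1.87 ± 1.04 RPKM (SD, n = 4 each, limma adjusted p = 0.0992). It was not called but was higher without overlap, as were 11.5% of all genes tested. The gap was narrow, from at most 1.02 RPKM in primed to at least 1.09 RPKM in dome-shaped libraries. TCF3, an E protein, was called lower (log2 fold change -0.38, limma adjusted p = 0.041), but not without any one primed library (adjusted p 0.0716, 0.0936, 0.0719 and 0.101 without replicates 1 to 4) nor without dome-shaped replicate 2 (0.0977) or 3 (0.0623).

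ZEB1 was under GRHL2 and OVOL2 in every primed library, above GRHL2 in every dome-shaped library and above OVOL2 in dome-shaped replicates 1 to 3. The ratio of ZEB1 to GRHL2 RPKM was 0.239, 0.00888, 0.0141 and 0.0163 in primed and 27.3, 40.0, 27.4 and 1.98 in dome-shaped libraries. The ratio of ZEB1 to OVOL2 was 0.00914 to 0.167 in primed libraries, 7.47 to 11.8 in dome-shaped replicates 1 to 3 and 0.837 in dome-shaped replicate 4. These ratios were not tested, since ZEB1 was higher and GRHL2 and OVOL2 lower without overlap. Which gene of a pair stood higher also depends on the gene lengths behind the RPKM values. In dome-shaped replicate 4 ZEB1 (7.45 RPKM) was under OVOL2 (8.90 RPKM), ESRP2 (16.8 RPKM) and ESRP1 (34.3 RPKM).

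**Figure D4:**
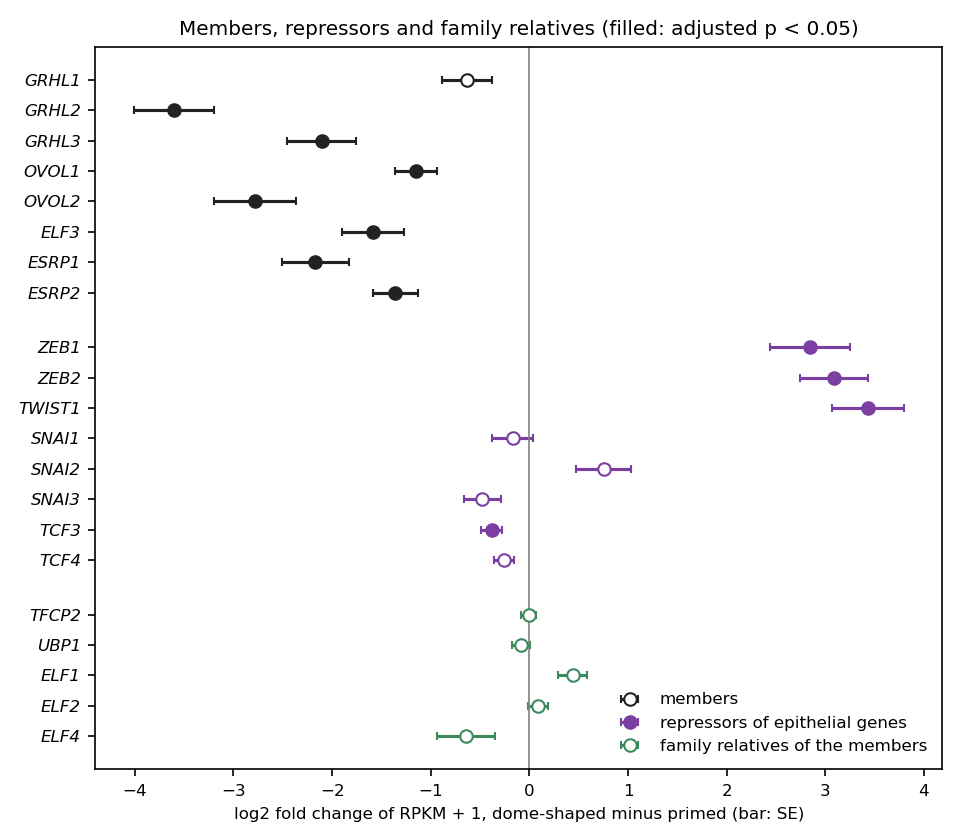
log2 fold change of RPKM + 1, dome-shaped minus primed (horizontal axis, bars SE), for the 8 genes, the 8 tested repressors of epithelial genes and the 5 tested family relatives; filled points passed an adjusted p of 0.05 by limma. ZEB1, ZEB2 and TWIST1 lie at 2.85 to 3.43, the 7 called members at -3.61 to -1.15, and no relative is called.

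Relatives of the 8 genes by protein family showed no called change. Of 10 relatives 8 were found, and TFCP2L1, ELF5 and EHF were under 1 RPKM in every library. By limma 0 of the 5 tested were called higher or lower (median log2 fold change -0.01). Of all genes tested 14.3% were called, so 0 calls among 5 genes cannot set the relatives apart from them. The grainyhead-like factors TFCP2 and UBP1 stood at 48.1 ± 2.78 against 47.8 ± 1.79 RPKM and at 71.5 ± 5.28 against 67.5 ± 7.04 RPKM (SD, n = 4 each; limma adjusted p = 0.948 and 0.565). The ETS factors ELF1 and ELF4 had limma adjusted p = 0.0787 and 0.167, with log2 fold changes of 0.44 and -0.65. ELF1 was higher without overlap, at 3.29 to 4.36 RPKM in primed and 4.95 to 7.08 RPKM in dome-shaped libraries. So were 11.5% of all genes tested.

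Other transcription factors of epithelia were mostly not called. Of 14 on the list 10 were tested, of which 0 were higher and 2 lower by limma (median log2 fold change -0.53). The shares of all genes tested were 6.38% higher and 7.96% lower. Of the 2 called, 1 passed the filter through primed libraries alone. TCF7L1, a TCF factor of WNT signalling, was called lower (log2 fold change -0.74, limma adjusted p = 0.0323), but its adjusted p was 0.0848, 0.0714 and 0.082 when primed replicate 2, 3 or 4 was left out and 0.0715, 0.0698 and 0.0811 when dome-shaped replicate 1, 2 or 3 was.

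TFAP2A, a factor of surface ectoderm, trophoblast and amnion, stood at 0.725, 15.9, 3.68 and 52.8 RPKM in primed and 4.94, 0.449, 2.25 and 1.60 RPKM in dome-shaped libraries (limma adjusted p = 0.256). GATA3, of trophoblast and surface ectoderm, stood at 0.575, 6.43, 8.98 and 18.1 RPKM and at 2.83, 0.153, 4.06 and 0.610 RPKM (limma adjusted p = 0.204). Primed replicate 4 was the highest primed library and primed replicate 1 the lowest for TFAP2A and GATA3. The same held for GRHL1, GRHL2, OVOL2 and ESRP2, and primed replicate 4 was also the highest for GRHL3. Primed replicate 4 was thus the highest primed library for 5 of the 8 genes, against 31.1% of all genes tested. Within the dome-shaped group TFAP2A was highest in replicate 1, where GRHL1, GRHL3 and ELF3 were highest, as were 35.4% of all genes tested, while GATA3 was highest in replicate 3.

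Summed over their lists, trophoblast markers came to 85.8 to 173 RPKM in primed and 50.8 to 70 RPKM in dome-shaped libraries, with 3 of 8 tested genes lower. Amnion markers came to 61.1 to 200.1 and 62.9 to 84.6 RPKM, with 1 of 5 tested genes lower. TFAP2A, at 52.8 RPKM in primed replicate 4, is on the trophoblast, amnion and surface ectoderm lists, so their sums are not independent. Surface ectoderm markers came to 56.0 to 102 and 23.2 to 32.5 RPKM, with 1 of 3 tested genes lower; that gene, SFN, had means of 41.9 and 15.5 RPKM and was not called when dome-shaped replicate 2 or 3 was left out. Endoderm markers came to 85.9 to 387 and 15.6 to 217 RPKM, the lowest sum being that of dome-shaped replicate 4, and 2 of 11 tested genes were lower. Markers of fibroblasts and feeder cells came to 280 to 1271 and 503 to 832 RPKM, with primed replicate 1 the highest of all libraries and 1 of 7 tested genes higher and 1 lower. Of 6 tested mesoderm markers 2 were lower, and of 7 neural ectoderm markers 2 were higher and 1 was lower. Of 6 neural crest markers, TWIST1 among them, 1 was higher and 2 were lower. Among all genes tested 7.96% were lower and 6.38% higher. These lists held 3 to 11 tested genes, so 1 gene changes their shares widely. Over the fits that left out 1 library the lower counts were 1 to 4 for trophoblast, 1 to 2 each for amnion, endoderm, mesoderm and neural crest, and 0 to 1 each for neural ectoderm and fibroblasts. Of the 13 trophoblast genes found, 2 were under 1 RPKM in every library, ELF5 among them. The part of such cells in the lower epithelial factors was not tested.

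Genes whose exons the ESRP proteins are known to select were mostly not called in total level. Of 21 such genes 19 were found and 18 tested. Beside 6.38% higher and 7.96% lower of all genes tested, 0 of the 18 were higher and 2 lower by limma (median log2 fold change -0.09). FGFR2, the best known of them, stood at 53.3, 66.2, 41.7 and 84.6 RPKM in primed and 84.0, 68.0, 77.3 and 65.6 RPKM in dome-shaped libraries (log2 fold change 0.30, SE 0.19, limma adjusted p = 0.319). CD44 stood at 9.70 ± 3.43 and 6.37 ± 3.73 RPKM (SD, n = 4 each; limma adjusted p = 0.258). In both genes the groups overlapped. Without overlap 4 of the 18 tested genes were lower, MAGI1 and NUMB among them, and 1 was higher. The shares of all genes tested were 10.7% lower and 11.5% higher without overlap. The symbol FGFR2 fitted 2 genes of the deposited table, of which 1 is shown, so its total level may be incomplete. The table gives 1 value per gene, so the use of single exons was not measured.

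RAC1 and OSBPL3 were the 2 called lower, by 0.29 and 0.61 on the log2 scale (limma adjusted p = 0.0295 and 0.0324). Leaving out primed replicate 1, 2 or 3 ended the call of RAC1 (adjusted p 0.0614, 0.0639 and 0.0801), as did leaving out dome-shaped replicate 2 or 3 (0.0537 and 0.0777). That of OSBPL3 ended with primed replicate 1, 2 or 3 left out (adjusted p 0.0668, 0.0665 and 0.0833) and with dome-shaped replicate 1, 2 or 3 left out (0.0603, 0.0559 and 0.0788).

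Among 25 other splicing regulators of epithelial and mesenchymal cells, 23 were found and 20 tested. By limma 3 were higher and 2 lower (median log2 fold change -0.04), against 6.38% and 7.96% of all genes tested. RBM47, an RNA-binding protein of epithelia, stood at 29.96, 24.2, 34.2 and 21.1 RPKM in primed and 4.94, 7.68, 6.47 and 14.0 RPKM in dome-shaped libraries (log2 fold change -1.68, SE 0.27, limma adjusted p = 0.00619). Dome-shaped replicate 4 was the highest of its group here too, while primed replicate 1 was not low. RBFOX3, known as the neuronal marker NeuN, fell from 4.40 ± 0.878 to 1.03 ± 0.424 RPKM (SD, n = 4 each; log2 fold change -1.42, limma adjusted p = 0.00347). Its widely expressed relative RBFOX2 stood at 61.2 ± 3.21 and 59.1 ± 6.31 RPKM (limma adjusted p = 0.711).

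NOVA1, MBNL3 and QKI rose by 0.64, 1.14 and 0.33 on the log2 scale (limma adjusted p = 0.0335, 0.0361 and 0.0373). QKI directs mesenchymal splicing and was the most abundant of the 3, at 111 ± 10.7 and 139 ± 9.73 RPKM (SD, n = 4 each). These calls rested on the full set of libraries. NOVA1 was not called when primed replicate 1 or 2 or dome-shaped replicate 1, 2 or 3 was left out (adjusted p 0.0559 to 0.089). For MBNL3 this held for each library but dome-shaped replicate 4 (0.0663 to 0.094), and for QKI for each but primed replicate 4 (0.0546 to 0.0841).

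**Figure D5:**
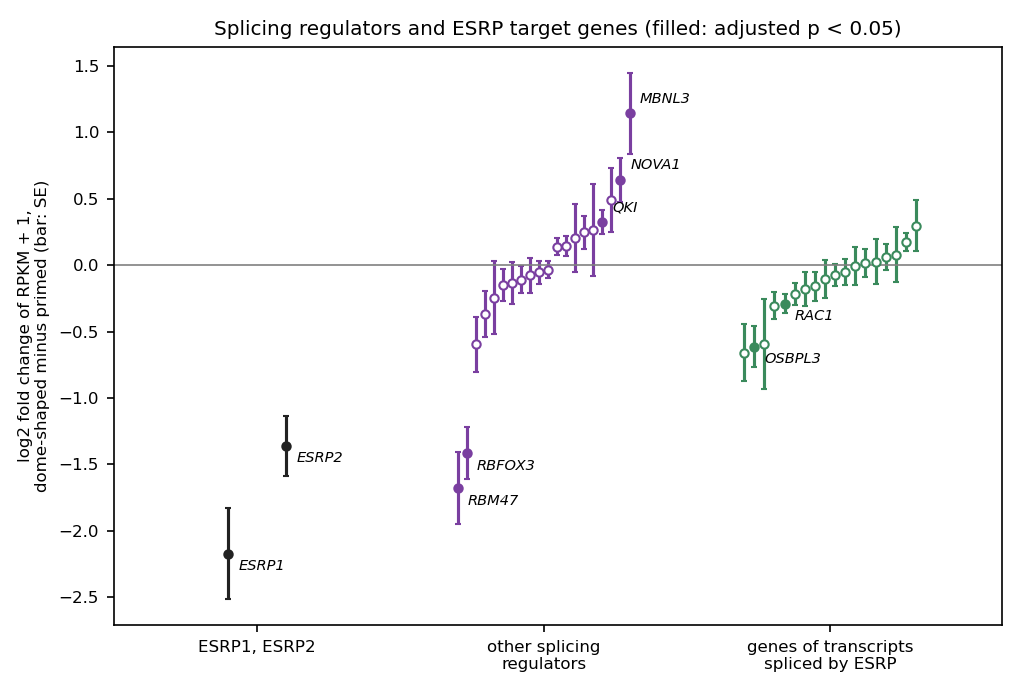
log2 fold change of RPKM + 1, dome-shaped minus primed (vertical axis, bars SE), for ESRP1 and ESRP2, the 20 other tested splicing regulators and the 18 tested genes with ESRP-spliced transcripts; filled points passed an adjusted p of 0.05 by limma and are named. ESRP1 (-2.17), RBM47 (-1.68), RBFOX3 (-1.42) and ESRP2 (-1.36) are the lowest points.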

How the data were processed

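Per the labels' protocols, mRNA was fragmented, copied into cDNA with random primers and sequenced on an Illumina HiSeq; no strand-specific step is recorded, so reads of overlapping antisense genes cannot be separated. HTSeq 0.6.1, TopHat2 2.0.9 and Bowtie2 2.0.6 are listed in the submitters' processing notes; for the genome build, nothing is given in the sources used here. RPKM values for the 8 libraries were deposited in 1 table, beside each gene's query length and its best protein hits, whose percent identity and score are as deposited. Of 33138 rows, 17 were blank and left out. Symbols came from the table (4302 genes), from RefSeq accessions of protein hits (identity of 85% or more, score no lower than 0.95 of the best), looked up in RefSeq's genes for assembly T2T-MFA8v1.1 (7354), or from 75 protein names paired by hand with list genes. Where the table and RefSeq both named a gene, 90.5% of 2223 symbols were equal. Names are thus those of the best protein match, and reads of close copies may be split or shared.

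Genes that reached 1 RPKM in 4 or more libraries were compared as log2(RPKM + 1), a scale that understates changes of low genes, with limma 3.58.1 in R 4.3.3 (two-sided, eBayes with trend and no covariates, Benjamini-Hochberg adjustment over 15597 genes, threshold 0.05). Single values were compared by exact permutation over 70 relabellings. The fit was tested on simulated data. Replicate numbers only name libraries. Between libraries of a group the smallest pairwise chi-square per degree of freedom was 7.44, more than sequencing the same library again would give. Separate libraries of the same RNA or culture can also differ, so repeats of that kind were not excluded. The members and gene lists were chosen with earlier results of these data known, and the ratios, of which 4 were tested, after their values were seen. Named were the members, 8 further genes set by name and up to 4 tested genes of each list with the smallest adjusted p, and for GRHL2 and ESRP1 the 5 most and 5 least correlated genes with a symbol and at least 5 RPKM in 1 group. TJP3, the other epithelial targets whose symbols fitted several genes, TFCP2, RBFOX2 and QKI were named outside that rule, after their values were seen. So were the cell type markers and the untested list genes. The values of 1 gene on a list are not reported here. Alternatives were pseudocounts of 0.1 and 0.5, no filter, genes averaging 5 RPKM or more, median-of-ratios scaling, quantile normalization, no mean trend, a replicate block and leaving out each library.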

Additional observations from a re-analysis of the deposited data

Results flagged for a closer look

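Of 16 groups of 4 libraries, 3 held a library whose distance to its nearest neighbour passed Dixon's critical value for 4 values, which chance passes in about 1 in 20 groups. In dome-shaped replicate 4 the level of GRHL2 was 3.76 RPKM, and the gap to the next library was 0.938 of the range. OVOL2 stood at 8.90 RPKM in the same library, with a gap of 0.893 of the range. ESRP1 stood at 60.6 RPKM in primed replicate 1, with a gap of 0.916 of the range.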

How the results depend on the processing

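The log2 fold change of each of the 8 genes was negative under every alternative run. GRHL2, GRHL3, OVOL1, OVOL2, ESRP1 and ESRP2 were called under all of them, ELF3 under all but the replicate block and GRHL1 under none. With a mean of at least 5 RPKM only 5 of the 8 were tested, and 5 were lower. Libraries with the same number after CES are not stated to share a source, and their deviations from the group means correlated at -0.098 to 0.125. Most libraries correlated best with a library of another number, such as primed replicate 4 with dome-shaped replicate 1 (r = 0.201). In a fit with this number as replicate block, 593 genes were lower and 303 higher, the members called lower came to 6, and ELF3 had a log2 fold change of -1.56 (limma adjusted p = 0.0545); fewer degrees of freedom remain in that fit. Under the block the counts were 0 lower repressors, 1 lower epithelial transcription factor, 0 lower ESRP-spliced genes and 0 higher splicing regulators, and 27 of 29 epithelial targets were lower. Without a filter the counts were 0 lower repressors, 1 lower other epithelial factor, 1 lower ESRP-spliced gene and 0 higher splicing regulators. With a mean of at least 5 RPKM, 1 other epithelial factor and 1 splicing regulator were lower. Under quantile normalization 1 ESRP-spliced gene was lower and 1 family relative higher, and without a mean trend 0 repressors and 1 ESRP-spliced gene were lower. Over the fits without 1 library, 655 to 1441 genes were lower and 381 to 1289 higher, 0 to 2 repressors, 1 to 3 other epithelial factors and 0 to 3 ESRP-spliced genes were lower, and 0 to 2 splicing regulators were higher. The cause of these changes was not tested. Values near 1 RPKM rest on few reads, 12 to 27 for OVOL1 in dome-shaped libraries.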
